A study of Mus musculus with 4 samples.

Results

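The Rab, SNARE and sorting nexin genes were taken from a consensus peak table of mouse neutrophils as every peak whose listed gene name began with Rab, Vamp, Stx, Snx or Vps followed by a digit. The rule used names only and no measured value. It found 236 of 23595 peaks, listed for 123 of 11693 genes, and 67 of these genes had 1 peak. Accessibility was measured by ATAC-seq, in which the Tn5 transposase inserts adapters into open chromatin. The KO group held 2 libraries of Morrbid deficient neutrophils on a C57BL6 background, and the WT group held 2 libraries of C57BL6 neutrophils. The series title describes Morrbid as a long non-coding RNA that acts on Bim, a pro-apoptotic protein, and on how long myeloid cells live. Cells of both genotypes were flow-sorted from bone marrow without culture, and 50000 cells of each genotype were transposed in duplicate. No label names separate animals, an age or a sex, so the spread between libraries may be technical and p-values measure only that spread.

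Rab proteins are small GTPases that mark membranes and, when loaded with GTP, recruit tethers, motors and coats. The membranes then fuse when an R-SNARE such as a VAMP on the vesicle pairs with a syntaxin and other Q-SNAREs on the target, while Vps complexes tether endosomes and, with sorting nexins, return cargo from them. In neutrophils this machinery carries preformed granules to the phagosome or the cell surface, and RAB27A is known for docking such granules. The name rule also took genes that are not part of this machinery in the strict sense. Vps72 encodes a chromatin remodelling subunit, 9 genes encode Rab effectors or regulators named after a Rab, and Rab11fip4os1 and Rab11fip4os2 are antisense RNA genes of Rab11fip4. Peaks were listed for a gene by the nearest start site, so 21 of the 236 lay inside or at another gene, among them 4 of Rab20.

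The promoters of 5 members show what start sites with and without a called difference look like. Each is the RefSeq window of GRCm38.p6 from 250 bases before to 50 bases after the start, in the direction of the gene. The peaks are in mm9, so windows and peaks were matched by gene and not by position. Capitals mark GTCACGTG (the E-box type of lysosomal gene promoters), CACGTG (E-box), GGGCGG (GC box), CCAAT and TGACGTCA (CRE) on either strand. Vps33a (chr5:123572966-123573265, minus strand) is shown because its peak was lower in KO, and Rab5a (chr17:53478984-53479283, plus strand) because it holds the same E-box type and its peak was not called.
Vps33a: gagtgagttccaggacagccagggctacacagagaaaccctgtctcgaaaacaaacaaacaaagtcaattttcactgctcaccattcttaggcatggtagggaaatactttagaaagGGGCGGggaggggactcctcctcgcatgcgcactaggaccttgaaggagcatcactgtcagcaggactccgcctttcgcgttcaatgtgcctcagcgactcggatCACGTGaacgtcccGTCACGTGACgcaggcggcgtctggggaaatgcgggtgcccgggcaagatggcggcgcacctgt
Rab5a: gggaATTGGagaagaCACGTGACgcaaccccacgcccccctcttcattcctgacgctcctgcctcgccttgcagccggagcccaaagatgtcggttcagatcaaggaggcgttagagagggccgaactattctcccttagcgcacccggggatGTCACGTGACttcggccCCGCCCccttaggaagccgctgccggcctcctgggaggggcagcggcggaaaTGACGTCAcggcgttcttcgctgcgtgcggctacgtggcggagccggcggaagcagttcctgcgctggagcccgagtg
Both windows hold GTCACGTG together with its reverse complement, the 2 sharing their CACGTG. The next pair, Rab4b (chr7:27178834-27179133, minus strand) and Rab8a (chr8:72160950-72161249, plus strand), belong to promoters whose peaks were higher in KO.
Rab4b: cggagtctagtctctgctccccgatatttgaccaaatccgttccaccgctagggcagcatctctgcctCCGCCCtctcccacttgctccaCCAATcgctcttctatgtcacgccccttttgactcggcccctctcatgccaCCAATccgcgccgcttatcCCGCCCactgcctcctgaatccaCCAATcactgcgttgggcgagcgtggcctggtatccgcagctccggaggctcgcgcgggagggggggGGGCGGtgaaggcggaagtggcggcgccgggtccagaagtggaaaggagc
Rab8a: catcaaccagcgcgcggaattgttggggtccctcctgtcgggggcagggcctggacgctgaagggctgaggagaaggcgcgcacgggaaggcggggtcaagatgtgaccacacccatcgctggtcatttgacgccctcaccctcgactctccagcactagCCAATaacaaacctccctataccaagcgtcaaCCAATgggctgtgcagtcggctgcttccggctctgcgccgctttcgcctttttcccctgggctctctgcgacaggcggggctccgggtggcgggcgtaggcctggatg
CCAAT stands 3 times in the Rab4b window and 2 times in the Rab8a window. Snx6 (chr12:54795613-54795912, minus strand) is the promoter with the lowest fold change of all called member promoters.
Snx6: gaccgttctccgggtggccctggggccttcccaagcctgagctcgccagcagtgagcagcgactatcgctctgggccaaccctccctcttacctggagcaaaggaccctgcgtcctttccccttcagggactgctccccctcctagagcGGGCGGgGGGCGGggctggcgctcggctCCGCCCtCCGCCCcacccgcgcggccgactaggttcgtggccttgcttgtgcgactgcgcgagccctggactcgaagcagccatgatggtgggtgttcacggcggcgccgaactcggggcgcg
Its window holds 4 GC boxes, 2 on each strand, and no other motif searched.

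The deletion was visible at the deleted gene. In 2 peaks listed for Morrbid (as Gm14005) the KO libraries had 0.88 and 0.69, which is 1 read each, against 166 and 154 in WT for the first peak and 120.3 and 119.7 in WT for the second. Values throughout are the deposited normalised reads per peak. Every value was a whole multiple of 1 step per library, and taking a step as 1 read gave 6182922 and 7930547 reads in peaks in KO, against 3577922 and 3803711 in WT. Depth thus followed genotype, and its part in the differences was not tested. Member peaks had a median of 148 and 184.5 reads in KO, against 95 and 106.5 reads in WT. Of 13 neutrophil marker genes, 10 had a peak and 8 had one at the start site, with none for Elane, Ly6g and Mpo. Their summed signal was 7157 and 7397 in KO, against 7191 and 5990 in WT. No B cell, T and NK cell, or eosinophil, basophil and mast cell marker had a peak at a start site, while 2 of 8 monocyte, 1 of 7 erythroid and 4 of 5 stem cell markers had one. A peak at any position was listed for 1 of 7 B cell, 3 of 8 T and NK cell and 5 of 8 eosinophil, basophil and mast cell markers. The same held for 5 of 8 monocyte, 2 of 7 erythroid and 4 of 5 stem cell markers. In sorted bulk cells a lower signal cannot tell fewer cells with the site open from less opening in each.

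Few members were called as different between KO and WT. Of the 236 peaks, 17 were higher in KO (7.20%), 9 were lower (3.81%) and 210 were not called, by limma on log2(signal + 1) with Benjamini-Hochberg adjusted p below 0.05 over all peaks. Among all 23595 peaks, 6.08% were higher and 4.55% were lower, so the members' shares lay near the background. The median log2 fold change was -0.013 over the members and -0.0019 over all peaks. The 17 higher peaks changed little, with a median log2 fold change of 0.38 and 16 of 17 under 1.5-fold, and were strong peaks with a median signal of 639. The 9 lower peaks changed more, with a median of -0.84, and were weaker with a median signal of 127. In all 26 the KO and WT libraries did not overlap. Such separation was common: 69 members had both KO libraries above both WT libraries and 58 had both below, against 28% and 27.3% of all peaks. With 2 libraries a group an exact permutation test of a single peak cannot go below p = 0.333, so each call rests on the fit across all peaks.

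**Figure D1:**
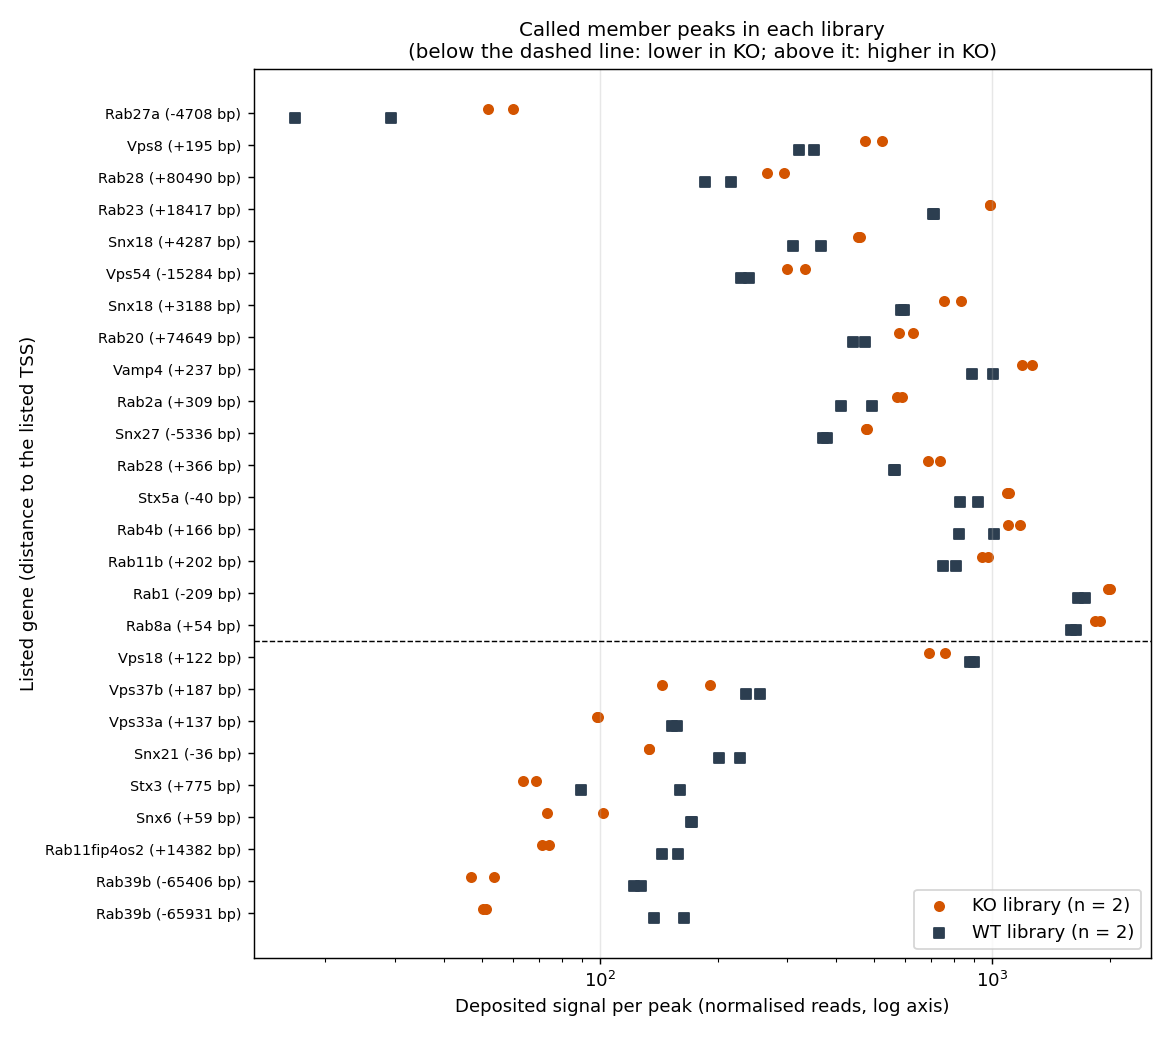
Deposited signal (normalised reads, log axis) of the 26 called member peaks in each KO library (circles) and each WT library (squares), ordered by log2 fold change, with the distance to the listed start site in brackets. Higher peaks stand above the dashed line and lower peaks below it. The 17 higher peaks have a median log2 fold change of 0.38 and the 9 lower peaks one of -0.84.

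The number of calls depended on scaling and on single KO libraries. Of the calls, 65.4% were higher in KO with the deposited scaling, 76.5% after median centring, 42.1% after scaling to equal totals and 27.3% after cyclic loess. Over all peaks the same shares were 57.2%, 74.3%, 40.0% and 47.6% in the same order. Without KO replicate 1, 3 peaks were higher and 4 lower, and without KO replicate 2, 2 were higher and 4 lower. Without WT replicate 1 the counts were 29 and 24, and without WT replicate 2 they were 27 and 17. Cyclic loess ended 16 of the 26 calls and scaling to equal totals ended 9. A fit without a mean-variance trend called 0 peaks, with 15 higher and 19 lower members at an unadjusted p below 0.05 in limma. No called member changed direction under any of these settings. The calls that held in every setting in which the peak was fitted, other than a fit without a mean-variance trend, were 4: both Rab39b peaks, Rab23 and Rab11fip4os2.

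Among Rab genes of secretion and lysosome-related organelles, 5 of 28 peaks were higher (17.9%) and 0 were lower, with a median log2 fold change of 0.18. Of all peaks 6.08% were higher and 4.55% lower. The median signal of the 28 peaks was 173, in the middle tercile of signal. Of all peaks in that tercile 3.56% were higher, and of those in the strongest 13.1%. The difference was not tested, and nothing particular to these genes is read from the count. The split was 8 and 0 after median centring, 2 and 1 after scaling to equal totals and 2 and 1 after cyclic loess, and leaving out either KO library left 1 higher peak. The members called were Rab27a, Rab8a, Rab23 and Rab28, and Rab23 and Rab28 are best known from cilia rather than from granules. Rab27a had 2 peaks that differed more from each other in fold change than any other pair of peaks of a member gene. The peak at chr9:72907161-72907334, in intron 1 of NM_023635 and 4708 bp before the nearest listed start, had 60.0 and 52.0 in KO, against 29.4 and 16.7 in WT. Both KO libraries were above both WT libraries, with the largest log2 fold change of all members (1.29 ± 0.35 SE, adjusted p = 0.0197). It was also among the weakest members. Its log2 fold change was 1.19 without KO replicate 1 and 1.40 without KO replicate 2, and it was called in neither case. At the promoter of Rab27a, chr9:72892018-72892891, the signal was 155 and 138 in KO and 175 and 142 in WT. There the groups overlapped and the peak was not called (log2 fold change -0.11, adjusted p = 0.748).

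Rab23, an inhibitor of Hedgehog signalling at the cilium, was the higher member with the lowest p. Its peak in intron 7, chr1:33794942-33796420, had 989 and 987 in KO and 709 and 713 in WT. The libraries of a genotype were nearly alike and the groups stood well apart (0.47 ± 0.08 SE, adjusted p = 0.000832). Its promoter peak had 225 and 209 in KO, against 213 and 182 in WT, which overlapped. Rab28 had 4 peaks, all with positive fold changes and 2 called. The one at the start site had 738 and 689 in KO and 566 and 561 in WT (adjusted p = 0.0248). The one in intron 6, 80490 bp from the start, had 267 and 295 in KO and 216 and 185 in WT (adjusted p = 0.0366). Log2 fold changes were 0.34 and 0.49, and the first was 0.22 and not called after cyclic loess (adjusted p = 0.163). Rab8a, which directs vesicles from the Golgi to the cell surface, had the smallest fold change of all called members. Its promoter held 1884 and 1826 in KO and 1635 and 1594 in WT, on the sequence printed above (0.20 ± 0.06 SE, adjusted p = 0.0415). The gap between genotypes was small but wider than that within each, and after cyclic loess it was gone (log2 fold change 0.01, adjusted p = 0.921).

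Other Rabs known from granules were not called. The promoter of Rab3d, a Rab of secretory granules, had 269 and 251 in KO and 332 and 347 in WT, with separated groups (log2 fold change -0.38, adjusted p = 0.0644). Its second peak had a log2 fold change of -0.22. Rab37, a Rab of mast cell granules, had 182 and 187 in KO and 222 and 237 in WT at its promoter (adjusted p = 0.203). At both promoters the groups were separated with KO lower, and neither passed the test. Rab38 and Rab32 serve melanosomes and other lysosome-related organelles. Rab38 had 104 and 107 in KO and 113 and 119.7 in WT at its start site (adjusted p = 0.705), and Rab32 had 1067 and 1102 in KO and 1009.7 and 1059 in WT (adjusted p = 0.62). Rab27b had no peak in the table.

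Of the 18 peaks of early endosome and recycling Rabs, 2 were higher (11.1%) and 0 lower, beside 6.08% and 4.55% of all peaks. Their median log2 fold change was 0.05. Rab4b, which drives fast recycling to the surface, had 1100.3 and 1181 in KO and 1009.7 and 823 in WT at its promoter. WT replicate 2 was the low library, and the groups did not overlap (0.32 ± 0.09 SE, adjusted p = 0.0216). Without that library the log2 fold change was 0.18 and not called (adjusted p = 0.0991), and after cyclic loess it was 0.17 (adjusted p = 0.268). Rab11b, a Rab of recycling endosomes, had 974 and 944 in KO and 810.1 and 750.2 in WT (0.30 ± 0.09 SE, adjusted p = 0.0256), and 0.16 after cyclic loess (adjusted p = 0.272). Its relative Rab11a had 378 and 362 in KO and 511 and 362 in WT, where WT replicate 1 alone was high (adjusted p = 0.32), and its other 2 peaks, in an intron of Megf11, had log2 fold changes of -0.59 and -0.45. Rab5a organises early endosomes and phagosomes. Its promoter, printed above, had 1506 and 1542 in KO and 1434 and 1354 in WT (adjusted p = 0.235). Rab14 had 331 and 382 in KO and 362 and 418 in WT, which overlapped (adjusted p = 0.554). Rab31, which sorts receptors at endosomes, had 89.2 and 88.0 in KO and 120.3 and 136 in WT at its start site, with KO lower and not called (adjusted p = 0.0994), while its other 4 peaks had log2 fold changes from 0.03 to 0.39.

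Late endosome and lysosome Rabs had 16 peaks, of which 1 was higher (6.25%) and 0 lower, beside 6.08% and 4.55% of all peaks. The higher peak was listed for Rab20, a Rab of phagosome maturation and the member with the most peaks (10). It lay 74649 bp from the Rab20 start in an intron of Col4a2 (chr8:11403397-11404304) and had 580.2 and 629 in KO and 474 and 443 in WT. Both KO libraries were above both WT libraries (0.40 ± 0.11 SE, adjusted p = 0.0163). The peak nearest the Rab20 start had 263 and 207 in KO and 204 and 214 in WT, with KO replicate 2 below WT replicate 2. The other 8 had log2 fold changes from -0.69 to 0.38. Rab7, the main Rab of late endosomes, had 571 and 515 in KO and 536 and 597 in WT at its promoter (adjusted p = 0.76), and -0.08 and -0.28 as log2 fold changes of its 2 upstream peaks.

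The ER and Golgi Rabs had 17 peaks, with 2 higher (11.8%) and 2 lower (11.8%), beside 6.08% and 4.55% of all peaks. Rab1, which controls transport out of the ER, had 1981 and 1995 in KO and 1727 and 1660.4 in WT at its promoter (0.23 ± 0.06 SE, adjusted p = 0.0175). Rab2a, which acts between the Golgi and the ER, had 589 and 571 in KO and 411 and 494 in WT at the start site (0.36 ± 0.11 SE, adjusted p = 0.0359). In both the KO libraries lay close together and above WT. Rab1 was at 0.04 and not called after cyclic loess (adjusted p = 0.732), and Rab2a at 0.23 and not called without WT replicate 1 (adjusted p = 0.106). The lower pair belonged to Rab39b, known for autophagy and vesicle traffic in neurons. The first, chrX:72889342-72889661, had 50.3 and 51.3 in KO and 164 and 138 in WT. The second, chrX:72888873-72889079, had 53.9 and 47.1 in KO and 128 and 122 in WT. Both KO libraries had less than 0.5 times either WT library at each site, and the fold changes (-1.55 ± 0.23 and -1.29 ± 0.24 SE) carried adjusted p values of 0.000107 and 0.000936. These sites are 65931 and 65406 bp upstream of Rab39b, inside SYNREP_MM satellite repeats. Reads of such multi-copy sequence cannot be placed with certainty, so the values are uncertain as to their position. The strongest Rab peak of all was the promoter of Rab22a, a Rab of endosome recycling, with 2044 and 1944 in KO and 1727 and 1819 in WT, and it was not called (adjusted p = 0.08). Peaks differ in length, and per kb of peak Rab8a led with a mean signal of 1638 over the 4 libraries, against 1247 at Rab22a. Of 15 peaks of Rab effectors and regulators 0 were called by limma (2 higher and 0 lower at an unadjusted p below 0.05), and their median log2 fold change was 0.14.

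**Figure D2:**
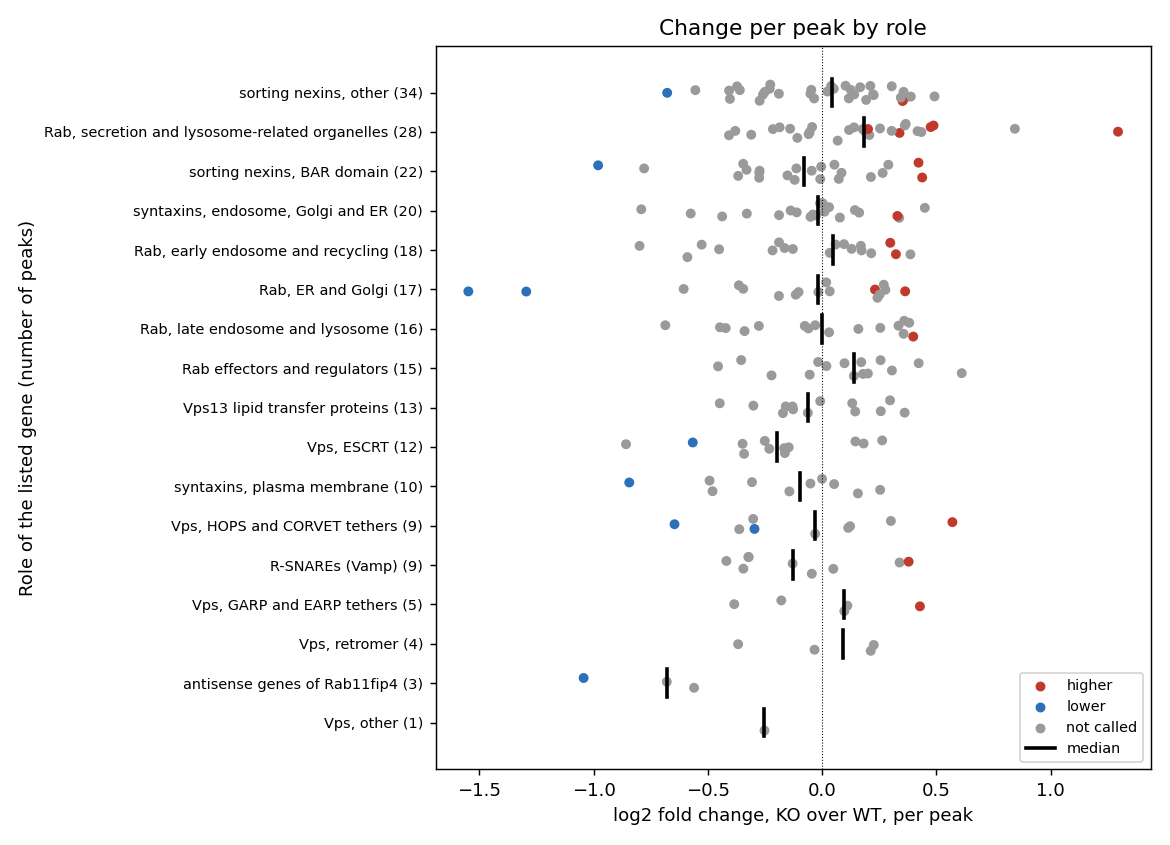
Log2 fold change (KO over WT) of every member peak, 1 point a peak, by the role of its listed gene, with the number of peaks in brackets and the median as a black bar. The 28 peaks of secretion Rabs have a median of 0.18 with 5 higher and 0 lower, and the 3 peaks of the Rab11fip4 antisense genes have a median of -0.68.

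The R-SNAREs had 9 peaks in 6 genes, of which 1 was higher (11.1%) and 0 lower, beside 6.08% and 4.55% of all peaks. Vamp4, the R-SNARE of the trans-Golgi network, had 1192 and 1268 in KO and 891 and 1003 in WT at a CpG island over its start site. The lowest KO library was above the highest WT library (0.38 ± 0.08 SE, adjusted p = 0.0038), and after cyclic loess the log2 fold change was 0.22 and not called (adjusted p = 0.0893). Vamp2, a partner for exocytosis of neutrophil granules, had 240.2 and 219 in KO and 364 and 259 in WT (log2 fold change -0.42, adjusted p = 0.0813). Vamp8, the R-SNARE of late endosomes and secretory granules, had 177 and 177 in KO and 236 and 209 in WT (log2 fold change -0.32, adjusted p = 0.196). KO was below WT in both without a call, and in Vamp2 WT replicate 1 stood above WT replicate 2. Vamp3, of recycling endosomes, held the strongest Vamp peak, with 1476 and 1516 in KO and 1484 and 1409.9 in WT, and its second peak was not called either (log2 fold change -0.32). Vamp1 had 321 and 403 in KO and 369.8 and 418 in WT, which overlapped (adjusted p = 0.564), and Vamp7 had no peak.

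Of 10 peaks of plasma membrane syntaxins, 1 was lower (10%) and 0 were higher, beside 4.55% lower and 6.08% higher of all peaks. Stx3, a target SNARE for granules at the cell surface, had 68.9 and 63.7 in KO and 89.5 and 160.1 in WT near its start (chr19:11892824-11893412). The groups were separated, but WT replicate 2 was far above WT replicate 1 (-0.84 ± 0.25 SE, adjusted p = 0.0311). Without WT replicate 2 the log2 fold change was -0.43 and not called (adjusted p = 0.259). Stx4a, the syntaxin that pairs with VAMP2 at the plasma membrane, had 158 and 116 in KO and 209.9 and 171 in WT at its promoter (adjusted p = 0.097) and -0.49 as the log2 fold change of its second peak. Stx11, mutated in an inherited human defect of cytotoxic granule release, had 355 and 364 in KO and 367 and 352 in WT at its start, with overlap. Its other 3 peaks had log2 fold changes from -0.14 to 0.16. The name Stx4 was not in the table, which lists Stx4a.

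Syntaxins of endosomes, Golgi and ER had 20 peaks, with 1 higher (5%) and 0 lower, beside 6.08% and 4.55% of all peaks. Stx5a, the Golgi syntaxin, had 1092 and 1107 in KO and 922 and 831 in WT at its promoter (0.33 ± 0.08 SE, adjusted p = 0.0115). The KO libraries were nearly equal and above both WT libraries, and after cyclic loess the log2 fold change was 0.18 and not called (adjusted p = 0.185). Stx6, of the trans-Golgi network, had the strongest syntaxin peak with 1373 and 1332 in KO and 1265 and 1464 in WT, which overlapped (adjusted p = 0.955), and its 4 distal peaks had log2 fold changes from -0.58 to -0.04. Stx12, an endosomal syntaxin, had 52.1 and 58.2 in KO and 70.4 and 131 in WT, again with WT replicate 2 high (adjusted p = 0.0623). Stx7, of late endosomes, had 602 and 549 in KO and 549 and 494 in WT at its start site (adjusted p = 0.409), and its 2 other peaks had log2 fold changes of -0.03 and 0.00. Stx16 had the most peaks of the family (6), none called.

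Sorting nexins with a BAR domain, which bend membranes into tubules, had 22 peaks. Of these, 2 were higher (9.09%) and 1 lower (4.55%), beside 6.08% and 4.55% of all peaks. Both higher peaks lay in the first intron of Snx18, which acts in endocytosis and autophagy and had the most sorting nexin peaks (9). One, chr13:114405020-114406148, had 753 and 836 in KO and 587 and 597 in WT (0.42 ± 0.09 SE, adjusted p = 0.00558). Its neighbour, chr13:114404189-114404782, over a MER3 repeat, had 460.1 and 457 in KO and 311 and 367 in WT (0.44 ± 0.12 SE, adjusted p = 0.0215). Between these and the rest of the locus the fold changes varied, from -0.78 to 0.44 over the 9 peaks. Snx6, a subunit that pairs with retromer in returning receptors to the Golgi, was lower at its promoter, with 73.3 and 102 in KO and 172 and 171 in WT. The WT libraries differed by under 1 normalised read, and both KO libraries were far below (-0.98 ± 0.20 SE, adjusted p = 0.003). The KO libraries differed more from each other. Without KO replicate 1 the log2 fold change was -0.75 and not called, and without KO replicate 2 it was -1.21.

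The other sorting nexins had 34 peaks, with 1 higher (2.94%) and 1 lower (2.94%), beside 6.08% and 4.55% of all peaks. Snx27, the PDZ-domain adaptor that links cargo to retromer, had 477 and 479 in KO and 379 and 370.2 in WT at a site 5336 bp upstream (0.35 ± 0.11 SE, adjusted p = 0.0454), and 313 and 288 in KO and 249 and 287 in WT at its start, where KO replicate 2 and WT replicate 2 were almost equal and nothing was called. Snx21 had 133 and 134 in KO and 227 and 202 in WT at its promoter (-0.68 ± 0.17 SE, adjusted p = 0.0115). The KO libraries differed by under 1 normalised read, and both were below WT. The log2 fold change of Snx21 stayed at -0.68 without either KO library, but the call was lost. Snx20, which binds the leukocyte adhesion ligand PSGL-1, had 439 and 428 in KO and 456 and 439.8 in WT at its start site, with log2 fold changes of -0.26 and -0.04 at its other 2 peaks. Snx10, of endosomes and osteoclasts, had 65.3 and 65.1 in KO and 66.0 and 94.6 in WT, and its other 3 peaks had log2 fold changes from -0.55 to -0.25. No peak of Snx10 or Snx20 was called. The strongest sorting nexin peak, at the start of Snx13, had 1134 and 1148 in KO and 935 and 1066 in WT (adjusted p = 0.126). Per kb of peak the start of Snx18 was the strongest, with a mean signal of 727 against 706 at Snx13.

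The Vps genes were called in both directions. HOPS and CORVET, which tether late and early endosomes before fusion, had 9 peaks. Of these, 1 was higher (11.1%) and 2 lower (22.2%), beside 6.08% and 4.55% of all peaks, a difference that was not tested. Vps8, a subunit of CORVET alone, had 525 and 474 in KO and 351 and 321 in WT over a CpG island at its start (0.57 ± 0.12 SE, adjusted p = 0.00283). Vps33a and Vps18, of the core that both tethers share, were lower. Vps11, Vps39 and Vps41 of this role were not called, with log2 fold changes of -0.36, 0.12 and 0.30. Vps33a had 98.9 and 98.4 in KO and 153 and 157 in WT (-0.65 ± 0.19 SE, adjusted p = 0.0313), on the E-box promoter printed above. Vps18 had 691 and 759 in KO and 876 and 902 in WT (-0.30 ± 0.09 SE, adjusted p = 0.0322). The KO and WT libraries of the 3 called peaks were separated, with the widest gap as a ratio in Vps33a. Vps33a was not called after cyclic loess (log2 fold change -0.59, adjusted p = 0.0624). Vps18 was not called after median centring (log2 fold change -0.23, adjusted p = 0.085). Without KO replicate 1 the log2 fold changes were 0.50 for Vps8, -0.65 for Vps33a and -0.23 for Vps18, and none was called. Without KO replicate 2 they were 0.64, -0.64 and -0.36, and of these only Vps8 was called. Vps33b had no peak.

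Among 12 peaks of Vps-named ESCRT genes, which bud vesicles into endosomes, 1 was lower (8.33%) and 0 higher. Of all peaks 4.55% were lower and 6.08% higher. The lower ESCRT peak was the promoter of Vps37b, of ESCRT-I, with 191 and 144 in KO and 236 and 256 in WT (-0.57 ± 0.17 SE, adjusted p = 0.0288). KO replicate 2 was the lowest library, and without it the log2 fold change was -0.37 and not called (adjusted p = 0.506). Vps4b, the ATPase that takes ESCRT apart, held the strongest Vps peak with 1128 and 1147 in KO and 1054 and 955 in WT (adjusted p = 0.14), while per kb of peak Vps26a, of retromer, led with a mean of 855 against 774 at Vps4b. The largest fold change among members not called was at Vps25, of ESCRT-II, with 38.0 and 32.6 in KO and 74.8 and 55.7 in WT (log2 fold change -0.86, adjusted p = 0.0658). The GARP and EARP tethers had 5 peaks, 1 of them higher, at -15284 bp from the start of Vps54, with 299 and 334 in KO and 229 and 241 in WT (0.43 ± 0.14 SE, adjusted p = 0.0468). At the start of Vps54 the signal ran the other way, with 179 and 159 in KO and 199.6 and 244 in WT, and was not called (adjusted p = 0.133).

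Retromer, which returns receptors from endosomes, had 4 peaks and 0 calls by limma, with 1 higher and 1 lower at an unadjusted p below 0.05. Its core gene Vps35 had 865 and 885 in KO and 860.0 and 932 in WT, which overlapped, at a peak that the annotation also gives to Orc6 (adjusted p = 0.842). The Vps13 lipid transfer genes had 13 peaks and 0 calls, with 1 higher and 0 lower at an unadjusted p below 0.05. Vps13b, lost in an inherited human syndrome with neutropenia, had 128 and 141 in KO and 135 and 135 in WT at its promoter, and 0.14 as the log2 fold change of its second peak. Vps13d had the most Vps peaks (8), with log2 fold changes from -0.45 to 0.36, and 2 of them lay in another gene. Vps45 had no peak.

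**Figure D3:**
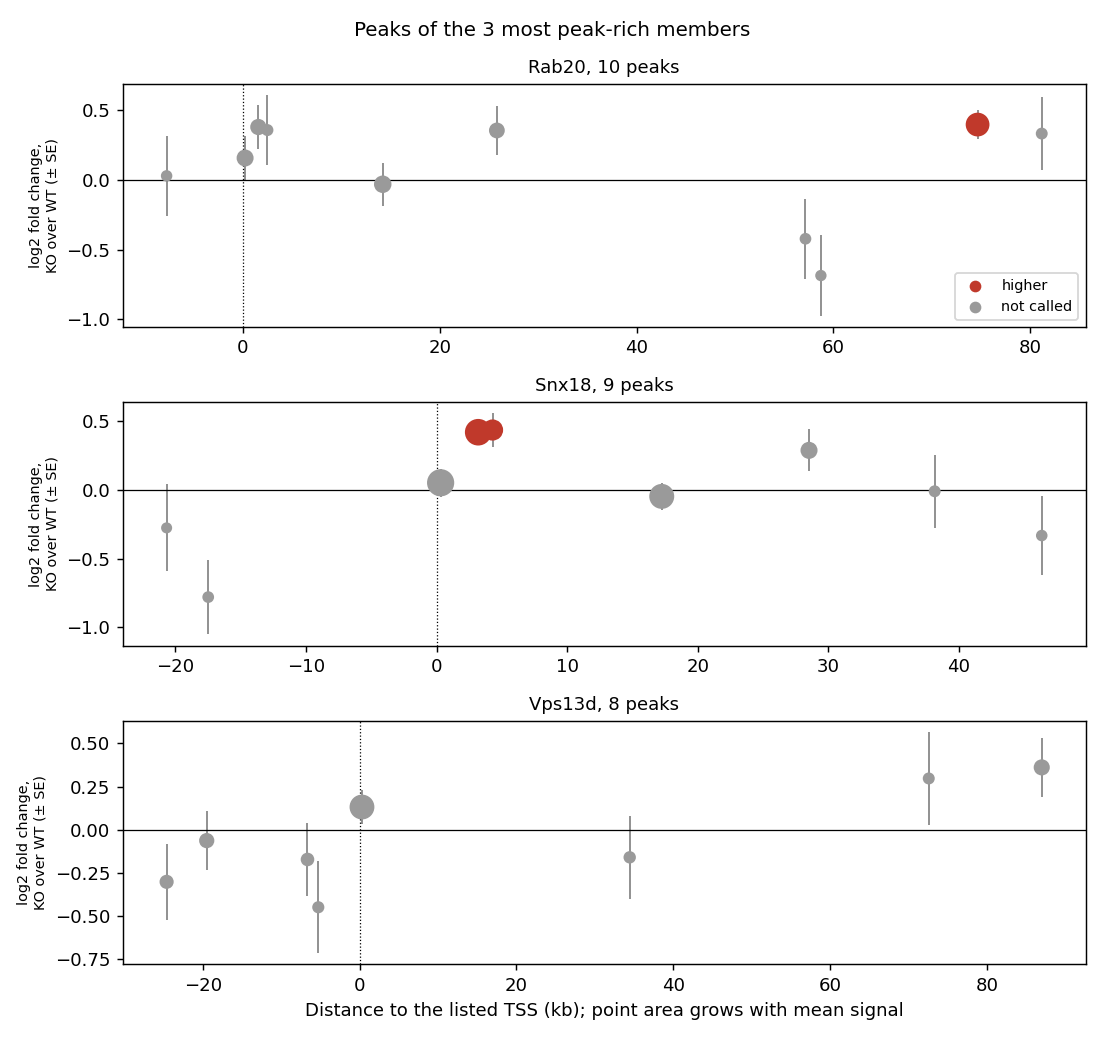
Log2 fold change (KO over WT, ± SE) of each peak of Rab20, Snx18 and Vps13d against its distance to the listed start site, with point area growing with mean signal. Called peaks are red: 1 of 10 at Rab20, 2 of 9 at Snx18 and 0 of 8 at Vps13d.

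Higher calls were mostly at strong peaks and lower calls at weaker ones. Peaks were split into equal terciles of the mean signal per peak, which grows with peak length, at 85.4 and 193. Of 96 members in the strongest tercile, 16 were higher (16.7%) and 2 lower (2.08%), against 13.1% and 3.20% of all strong peaks. Of 70 members in the middle tercile, 0 were higher and 7 lower (10.0%), beside 3.56% and 6.08% of all such peaks. Of 70 in the weakest tercile, 1 was higher (1.43%) and 0 lower, beside 1.53% and 4.37%. After cyclic loess, which removes trends of the fold change with strength, 2 strong members were higher and 3 lower. Without KO replicate 1 the strong members had 3 higher and 1 lower, and without KO replicate 2, 2 and 0. The median log2 fold change of the members was 0.12 in the strongest and -0.16 in the weakest tercile, beside 0.09 and -0.08 over all peaks. Whether the unequal depth of the genotypes takes part in this was not tested.

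**Figure D4:**
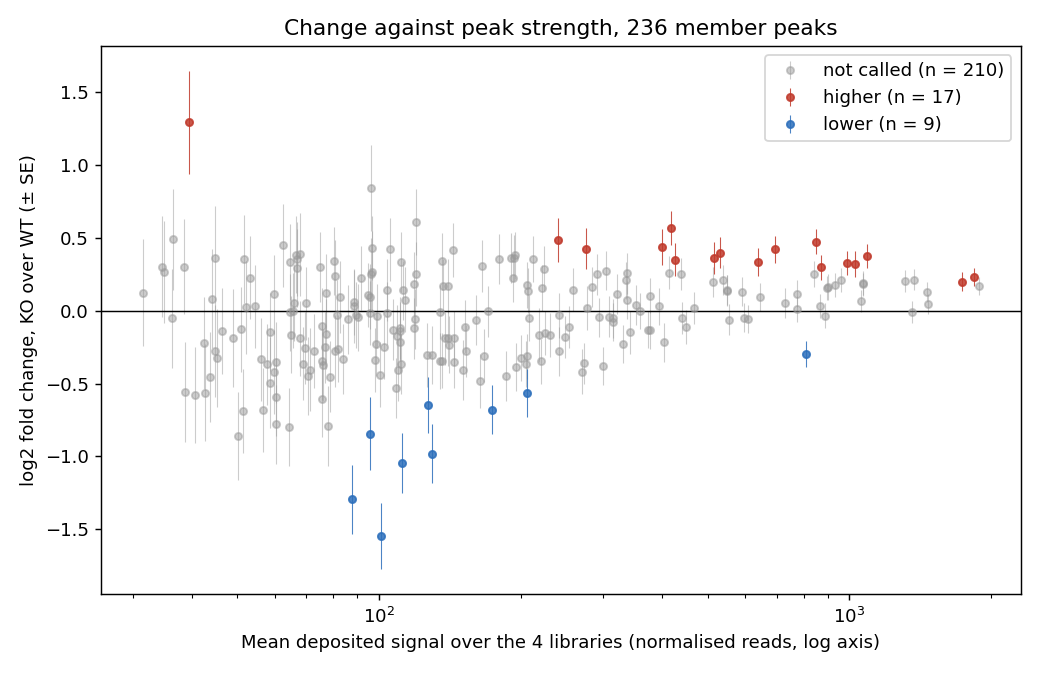
Log2 fold change (KO over WT, ± SE) of the 236 member peaks against the mean signal over the 4 libraries (log axis). Of the 17 higher peaks (red) 16 lie in the strongest tercile, above 193, and 7 of the 9 lower peaks (blue) lie in the middle tercile.

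Position was the other feature the rule did not use. Of the 236 members, 116 (49.2%) lay within 1000 bp of a start or were annotated as promoter, beside 38.5% of all peaks, a difference that was not tested. Of these 116, 9 were higher and 6 lower, which is 7.76% and 5.17%, beside 7.60% and 5.80% of all such peaks. Of the 88 members in introns, 11 were higher (12.5%) and 4 lower (4.55%), beside 5.07% and 3.62% of all intron peaks. The annotation counts the first intron just past a start as intron, as at Vamp4 and Rab4b, so the classes overlap.

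Summed over all peaks of a gene, 16 of 123 member genes were higher and 14 lower, against 10.8% and 8.26% of all 11693 genes with the same test. Of the 23 genes with a called peak, 21 were also called on the sum. The sum added genes whose single peaks had missed the threshold, and of those given here Rab3c, Rab10, Rab5b and Rab17 were picked after their values were seen. Rab3c, of regulated exocytosis, was higher, with sums of 509.5 and 493 in KO and 401 and 331 in WT over 3 distal peaks (0.46 ± 0.12 SE, adjusted p = 0.00548). Rab10 had 936 and 889.6 in KO and 743 and 789 in WT (0.25 ± 0.09 SE, adjusted p = 0.0351). Rab5b had 1409 and 1539 in KO and 1277 and 1261 in WT (0.21 ± 0.07 SE, adjusted p = 0.0341). Rab10 and Rab5b each had 1 peak, so the sum is that same peak tested among fewer features. Both calls were lost after scaling to equal totals, after cyclic loess and without either KO library. Among the genes of granule and phagosome traffic, sums were lower for Stx4a, Vamp2, Rab3d, Stx3 and Stx12, and higher for Rab20 and Snx27. All other genes of this group with a peak were not called on the sum. These were Rab5a, Rab7, Rab11a, Rab14, Rab27a, Rab31, Rab32, Rab37, Rab38, Vamp1, Vamp3, Vamp8, Stx6, Stx7, Stx11, Snx10, Snx20, Vps13b and Vps35. Of all genes 10.8% were higher and 8.26% lower, and the group was not tested against these shares. Stx4a had 203 and 165 in KO and 255 and 267 in WT (-0.51 ± 0.16 SE, adjusted p = 0.021), and its VAMP2 partner had 240.2 and 219 in KO and 364 and 259 in WT (-0.42 ± 0.15 SE, adjusted p = 0.0494). Vamp2 had 1 peak, and without WT replicate 1 it had a log2 fold change of -0.17 and was not called. The Vamp2 call was also lost without either KO library, after median centring and after cyclic loess. Rab3d had 377 and 348 in KO and 465 and 452 in WT (-0.34 ± 0.12 SE, adjusted p = 0.0357). Its call was lost after median centring. The calls of Rab3d, Stx4a and Rab3c were each lost without either KO library. Rab17, Stx12 and Vps25 were also lower, each on 1 peak, with log2 fold changes of -0.80, -0.79 and -0.86. Without WT replicate 2, Stx12 was at -0.35 (adjusted p = 0.395), and without WT replicate 1, Rab17 was at -0.57 (adjusted p = 0.138) and Vps25 at -0.65 (adjusted p = 0.128), so none of the 3 was called without 1 WT library. These genes were called on sums only, over fewer tests than the peaks. Cyclic loess ended 17 and scaling to equal totals 7 of the 30 gene calls. Without KO replicate 1 the sums gave 2 higher and 3 lower genes, and without KO replicate 2, 1 and 2.

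The lower antisense peak lay in a region of lower peaks. Rab11fip4os2 had 74.2 and 71.4 in KO and 144 and 159 in WT at chr11:79473906-79474507, a CpG island in intron 3 of NM_175543, the Rab11fip4 transcript (-1.04 ± 0.21 SE, adjusted p = 0.00216). KO was at about 0.48 times WT. From 78971802 to 79974507 on chromosome 11, a window chosen around the member peaks after seeing them, 18 peaks were listed. Of these, 0 were higher and 9 lower (50%), and 15 (83.3%) had both KO libraries below both WT libraries. Over all peaks 6.08% were higher and 4.55% lower, and 27.3% had both KO libraries below both WT libraries. The median log2 fold change of the 18 peaks was -0.65. The peak of Rab11fip4 itself was among those not called, with 104 and 92.8 in KO and 102.7 and 82.1 in WT. At Suz12, a Polycomb subunit gene in the window that was picked after its value was seen, the signal was 117 and 160.0 in KO and 204 and 238 in WT (log2 fold change -0.68, adjusted p = 0.0162). In a window around the Rab39b sites, also chosen after seeing them, 0 of 11 peaks were higher and 2 lower (18.2%). Both lower peaks were listed for Rab39b. Of the 11, 7 (63.6%) had both KO libraries below both WT libraries, beside 27.3% of all peaks. Their median log2 fold change was -0.22.

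Promoter letters were counted in the 126 RefSeq windows of 97 member genes, and beside them in all 32851 windows of the table, on both strands. Because a window of a gene with an open start site is the closer comparison, shares are also given for genes with a peak at the start. GTCACGTG stood in 8.40% of 119 such member windows, against 4.59% of 8981 such windows in all. CACGTG, which GTCACGTG contains, stood in 14.3% against 10.9%, and GGGCGG in 68.9% against 65.1%. CCAAT stood in 37.0% against 38.7%, GAGGAAGT, a PU.1 type site, in 1.68% against 3.22%, TGACGTCA in 1.68% against 3.61%, and the NRF1 site in 0.84% against 2.35%. Over all windows the shares were 7.94% and 2.25% for GTCACGTG, 13.5% and 7.15% for CACGTG, 67.5% and 35.7% for GGGCGG, and 35.7% and 37.4% for CCAAT. GAGGAAGT stood in 1.59% of member windows and 3.20% of all, TGACGTCA in 1.59% and 1.79%, and the NRF1 site in 0.794% and 0.971%. The 8 member genes with GTCACGTG were Rab21, Rab24, Rab3gap2, Rab3il1, Rab5a, Stx6, Vps26a and Vps33a. Of their start-site peaks 7 were not called, with log2 fold changes from -0.34 at Rab24 to 0.21 at Vps26a, and Vps33a was lower.

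Genes of the same pathway that the name rule leaves out were called at shares near the background too. They had 337 peaks in 148 genes, with 24 higher, 16 lower and a median log2 fold change of -0.001. Thus 7.12% were higher and 4.75% lower, beside 6.08% and 4.55% of all peaks. No single list was tested against these shares of all peaks. The calls of these lists come from the main fit, and how they hold under the other settings was not examined. The other SNARE genes had 4 higher (22.2%) and 0 lower of 18 peaks. Their median signal of 226 lay in the strongest tercile, where 13.1% of all peaks were higher. Bet1, a Golgi SNARE, had 306 and 239.7 in KO and 163 and 178 in WT (0.66 ± 0.16 SE, adjusted p = 0.0089), and Ykt6 was higher at its promoter, with 336 and 342 in KO and 242 and 229.6 in WT, and at a distal repeat (0.90). The genes of SM proteins and SNARE disassembly had 2 higher and 1 lower of 18. These were Stxbp5 (0.82, intergenic at -84515 bp from its start), Napa, the SNAP that opens spent SNARE complexes (0.28), and Napb (-0.88). Those of Rab prenylation and GDI had 2 higher and 1 lower of 12. Log2 fold changes were 0.34 at Gdi2, 0.67 at -2367 bp from Rabggta and -0.64 at -6273 bp from Rabac1.

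The largest of these lists, the Rab GEF and GAP genes, had 10 higher and 2 lower of 133 peaks. Mon1b, of the exchange factor for RAB7, had 2330.4 and 2331 in KO and 1804 and 1837 in WT (0.36 ± 0.06 SE, adjusted p = 0.000388). Tbc1d4, a GAP for RAB10, was lower, with 80.4 and 72.1 in KO and 167 and 178 in WT (-1.17 ± 0.20 SE, adjusted p = 0.00055). A peak at -160285 bp from Tbc1d2b had a log2 fold change of 0.85. Rab effectors without a Rab number had 2 higher and 3 lower of 42, among them Plekhm2 (-0.77). Also among them were intergenic peaks listed for Eea1, the tether of early endosomes, in both directions. These were -0.61 at -172712 bp and 0.78 at 126962 bp from its start. The exocyst had 0 called of 21 by limma, with 3 higher and 1 lower at an unadjusted p below 0.05. Of 6 peaks of Munc13 and synaptotagmin-like genes 1 was lower, the promoter of Unc13d, whose product primes granules together with RAB27A, with 415 and 485 in KO and 586 and 583 in WT (-0.38 ± 0.11 SE, adjusted p = 0.0256). Both KO libraries were below WT. ESCRT genes without a Vps number had 0 higher and 5 lower (20.8%) of 24. Of all peaks 6.08% were higher and 4.55% lower, and the difference was not tested. Among the 5, Mvb12b (-1.59, at a simple repeat), Chmp6 (-0.65, -37921 bp from its start) and Chmp1a (-0.62) had the lowest p. Adaptor and granule biogenesis genes had 4 higher and 3 lower of 63, led by Gga1 (-0.79), Bloc1s2 (-0.84) and Ap3s1 (0.73), all log2 fold changes of KO over WT.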

How the data were processed

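ATAC-seq of 4 libraries (2 KO, 2 WT) was used as the authors' deposited consensus peak table in mm9, with 1 normalised signal per peak and library and HOMER-style annotation, per the file headers. The tools listed in the submitters' processing notes, without their order, are HOMER, DiffBind, R 3.1.1, MACS2 2.1.0, BWA, Trimmomatic 0.32 and bcl2fastq 2.16.0. The sources used here do not give mapping filters, any shift of reads for Tn5 or the rule for consensus peaks. The deposited signal was a whole multiple of 1 step in each library (tolerance 0.001), and a step was taken as 1 read only to give depth.

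The log2(signal + 1) of KO and WT libraries was compared by limma (3.58.1, under R 4.3.3), two-sided, with genotype as the only term and a mean-variance trend in its empirical Bayes step, over all 23595 peaks and, on sums, over all 11693 genes, with Benjamini-Hochberg adjustment. The pseudocount of 1 understates the change of weak peaks. A filter on mean signal above 1 removed no member. The test was checked on simulated data with an assumed spread between libraries (dispersion 0.005). There it found 37% of 1.5-fold and 87% of 2-fold changes per peak, and 69% and 95% per gene. A peak without a call can therefore still differ by 1.5-fold. Replicates correlated at 0.981 (KO) and 0.959 (WT) across peaks and differed by more than counting noise (chi-square per degree of freedom 2.21 and 2.54), and no pair was merged. This does not show that they are separate animals. A start-site peak lay within 1000 bp of the start or was annotated as promoter. Deposited coordinates are printed unchanged.

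Named were all called members, genes of granule and phagosome traffic, the strongest and most peak-rich members of each family, the extremes of the fold change, the most different pair of peaks of 1 gene, and up to 3 called peaks of each other pathway list. The members, lists and tests were chosen with earlier results of these data known. Alternatives covered scaling, pseudocount, filter, trend, replicate block, single libraries, distance and repeats.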

Additional observations from a re-analysis of the deposited data

How the results depend on the processing

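Directions of all called members and genes were kept under every alternative run. The main counts were 17 higher and 9 lower peaks, and 16 higher and 14 lower genes. Higher peaks numbered 26 after median centring, 8 after scaling to equal totals and 3 after cyclic loess, and higher genes 9 and 5 under the last 2. Median centring and scaling to equal totals moved the median of all peaks to 0.06 and -0.06 on the log2 scale. Without the mean-variance trend 0 peaks and 0 genes were called by limma, with 15 higher and 19 lower peaks and 12 higher and 24 lower genes at an unadjusted p below 0.05. Leaving out 1 library gave 2 to 29 higher and 4 to 24 lower peaks, and 1 to 22 higher and 2 to 20 lower genes. The fewest calls came without a KO library, and the lone library of the group is then assumed to vary like the other group. A pseudocount of 10, no filter, a mean signal above 100, members within 10000 bp, no repeats and no Vps72 kept every count within 1.5 times. With the replicate number as a block, 20 peaks were higher and 12 lower, and 17 genes were higher and 15 lower. Deviations of same-numbered libraries correlated at -0.04 across all peaks and 0.15 across the members, and no label says that a number marks a shared source, so the numbers were not taken to pair the libraries. The planned count tests (edgeR and DESeq2) were not run, because the deposited values are a normalised signal. Depth, with medians of 136 and 175 reads per peak in KO against 86 and 91 in WT, limits the weak peaks most. The causes of these changes were not tested.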
